A study of Homo sapiens with 8 samples.

Results

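The 4 arrays described here are those of HUG1N, a human gastric cancer cell line, with and without a short hairpin RNA (shRNA) against GATA6. They are the 2 arrays labelled HUG1N shRNA and the 2 labelled HUG1N Control, of 8 arrays in the series. The other 4 hold the same comparison in Caco-2, a colorectal adenocarcinoma line. The labels also give the line's name as HuG-1. Both lines were grown in the supplier's recommended medium, infected, selected with puromycin and harvested, and total RNA was labelled with a 3′ in vitro transcription kit for Affymetrix expression arrays. The labels give control and shRNA arrays the same treatment text, and do not state the vector of the control cells, the length of selection, or that replicate arrays are separate cultures. So the p-values below reflect array-to-array spread alone, and that spread may be technical. In bulk RNA, fewer cells of a kind and less RNA per cell cannot be told apart.

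GATA6 is a zinc-finger transcription factor of the gut endoderm that binds DNA at sites around the letters GATA. It is known for the patterning of stomach and intestine, for keeping epithelial cells of both in their lineage, and for its amplification in gastric and oesophageal cancers. An shRNA is processed in the cell to a small RNA that pairs with the target's mRNA and lowers its level. The question was which genes depend on GATA6 in gastric cancer cells.

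Values are log2 expression values, and a change is the shRNA mean minus the control mean on that scale. Values under log2 4 were taken as unmeasured. Of 11963 genes, 7200 were over 4 in at least 2 of the 4 arrays and were tested, and 6888 were over 4 in all 4. A gene is called when its limma p, adjusted by the Benjamini-Hochberg method over the 7200 genes, is under 0.05. Where no array of a group was over 4, a bound written as at least stands in for the fold, computed by setting the other group's mean against 4. It makes no allowance for the spread between arrays.

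HUG1N expressed all 10 epithelial markers examined in all 4 arrays, among them EPCAM, KRT8 and KRT18. Of 10 stomach-type markers on the array, 8 were over 4 in some array, TFF1 and TFF2 at 12.998 to 14.25. The other two, SOX2 and GKN1, were unmeasured. Of 12 intestine-type markers, 7 were over 4 in some array, with LGALS4 at 14.18 to 14.25 and CDX1 at 5.37 to 7.58, while CDX2 stayed at 3.27 to 3.50. No immune marker of 16 and no endothelial marker of 9 was over 4 in any array, and PTPRC, CD3D, CD14, VWF and CDH5 lay near the lowest value of the table. Of 15 fibroblast markers 4 were over 4 in some array, and LUM, DCN, COL3A1 and PDGFRA were not. The summed linear level of the fibroblast list was 16260 and 17420 in control and 24300 and 25000 in shRNA arrays, most of it S100A4, which epithelial cells also express.

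The RNA control probe sets moved with the shRNA. The ACTB gap, the 3′ probe set minus the 5′ probe set of beta-actin, widens where labelled RNA is shorter. It was 2.68 and 2.35 in the control arrays and 3.69 and 3.77 in the shRNA arrays, with no overlap. The ACTB 3′ probe set changed little, 14.80 and 14.87 against 15.03 and 14.98, whereas the 5′ probe set was 12.12 and 12.52 against 11.35 and 11.21. The GAPDH gap was smaller, 0.37 and 0.44 against 0.67 and 0.59. The spikes added before hybridisation averaged 12.34 and 12.21 in control and 10.43 and 10.29 in shRNA arrays. In HUG1N these differences cannot be told apart from the shRNA, since both arrays of a group lie on the same side.

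**Figure D1:**
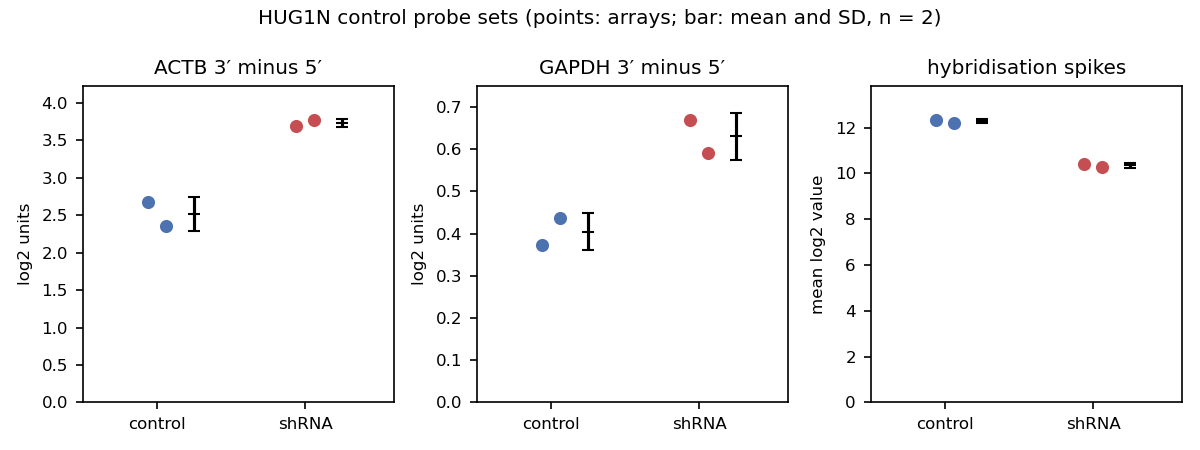
Control probe sets in the 4 HUG1N arrays, with the 3′ minus 5′ gap of ACTB and GAPDH in log2 units and the mean log2 value of the hybridisation spikes. Points are arrays and the bar is the mean and SD (n = 2); both gaps are wider and the spikes lower in the shRNA arrays.

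The targeted gene itself moved little. GATA6 was 12.54 and 12.45 in control and 12.27 and 12.22 in shRNA arrays. Both shRNA arrays lay below both controls, a mean level 1.19-fold lower. The change of -0.25 (SE 0.10) did not pass the test (limma adjusted p = 0.0794). Over 19 settings the adjusted p ran from 0.0380 to 0.251, and 2 settings passed, the mean-variance trend and the replicate number as a block. The array carries 1 probe set for GATA6, and where it lies relative to the shRNA's target site is not known here. Its relative GATA4 was 6.67 and 6.40 in control and 6.39 and 6.35 in shRNA arrays, a difference that did not pass the test (-0.17, SE 0.10, limma adjusted p = 0.218).

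Against that small difference in GATA6, many genes differed between the groups. Of the 7200 genes tested, 3815 were called, 53.0%, with 1924 higher (26.7%) and 1891 lower (26.3%) in shRNA cells. At least 2-fold changes were fewer, 393 higher (5.46%) and 507 lower (7.04%). The median change of all genes tested was 0.00, and 5% of genes lay below -1.21 and 5% above 1.05. Fitted on the 4 HUG1N arrays alone, 3179 genes were called (44.2%; 22.0% higher and 22.1% lower), and 3075 of the 3815 were among them. Of the 900 genes past 2-fold, 853 kept their call in that fit. The groups did not overlap for 77.6% of the genes tested, 38.8% in each direction, so non-overlap alone singles out no gene. Across genes, r was 0.994 between the arrays of either group and 0.949 to 0.953 between a control and an shRNA array. Because so many genes were called, the gene lists below are read against 26.7% higher and 26.3% lower. The lists were written with earlier results of these data known, so a share above these values is a description and not independent support.

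Genes measured in all 4 arrays gave the changes with a defined size. The largest rise was that of DNAI7, a gene of the axonemal dynein arms of motile cilia, at 9.22 and 9.78 in control and 13.69 and 13.97 in shRNA arrays. That is 20.1-fold (change 4.33, SE 0.19, limma adjusted p = 3.61e-05). DNAI7 was unmeasured in all 4 Caco-2 arrays, and genes without signal there have almost no spread in that line, which lowers the SE. IL20RA, a receptor chain for the interleukin-20 family of epithelial cytokines, was 5.25 and 4.55 in control and 8.35 and 8.22 in shRNA arrays (change 3.39, SE 0.21, limma adjusted p = 0.000104). SLC28A3, a concentrative nucleoside transporter, was 5.24 and 6.13 against 8.74 and 8.88, and the protocadherin gene PCDH7 was 5.88 and 6.50 against 9.45 and 9.04. P3H2, a collagen prolyl 3-hydroxylase, stood at 6.31 and 5.64 in control and at 9.09 and 8.98 in shRNA arrays. CCL5, a chemokine for T cells and monocytes, was just over the limit in control, 4.31 and 4.15, and 6.69 and 7.01 with the shRNA (6.15-fold).

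The remaining 8 of the 14 leading rises ran from 2.51 for the annexin ANXA9 to 2.97 for WDR5B, a homologue of the histone methylation subunit WDR5. They included LCMT2, a tRNA-modifying enzyme, at 2.84, BBOF1, a gene of ciliary basal bodies, at 2.79, and the PI3-kinase regulatory subunit PIK3R3 at 2.66. CADPS2, which primes dense-core vesicles for release, changed by 2.70, the pseudogene AHSA2P by 2.70 and the glycosyltransferase gene B3GALNT1 by 2.58. All 14 were higher in both shRNA arrays than in both controls, and their limma adjusted p ran up to 0.00397, for BBOF1. Averaging a gene's probe sets gave smaller changes for PCDH7 (1.55), LCMT2 (1.42) and PIK3R3 (1.38).

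The largest measured fall was that of MMP1, the interstitial collagenase, from 12.92 and 12.63 in control to 8.78 and 8.53 in shRNA arrays, 17.4-fold lower (change -4.12, SE 0.20, limma adjusted p = 4.52e-05). GREB1L, a relative of the oestrogen-induced gene GREB1, was 9.31 and 9.52 in control and 5.51 and 5.62 in shRNA arrays. RARRES1, a retinoic acid-induced membrane protein, was 9.05 and 8.99 against 5.21 and 5.45. These falls were even between the arrays of a group. RNASE1, a secreted ribonuclease, was less so, 9.28 and 9.24 in control against 6.20 and 4.74 with the shRNA (change -3.79, SE 0.41, limma adjusted p = 0.000648). CD70, a TNF-family ligand for CD27, was 8.44 and 8.69 in control and 4.50 and 5.48 in shRNA arrays.

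Several further leading falls were of genes of inflammation, the cell surface and sterol transport. CASP1, the protease that matures interleukin-1 beta, was 7.99 and 8.63 in control and 4.76 and 5.17 in shRNA arrays, 10.2-fold lower (limma adjusted p = 0.000132). LAMP3, a lysosomal membrane protein of activated dendritic cells, was 8.66 and 8.46 against 5.30 and 5.53. PROCR, the endothelial protein C receptor, was 11.38 and 11.22 against 8.22 and 8.15, and ABCG1, a cholesterol exporter, was 8.72 and 8.21 against 5.09 and 5.76. The rest of the 14 were TPBG, an oncofoetal membrane protein that dampens Wnt signalling (change -2.87), the orphan receptor gene GPRC5B (-3.06), ENO2 (-2.89), POU5F1B (-3.07) and HCRP1 (-2.87). POU5F1B is a near-identical copy of the pluripotency gene POU5F1, so its value may include signal from that relative. Averaging probe sets gave -1.90 for RNASE1, -1.53 for GPRC5B and -1.46 for HCRP1.

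**Figure D2:**
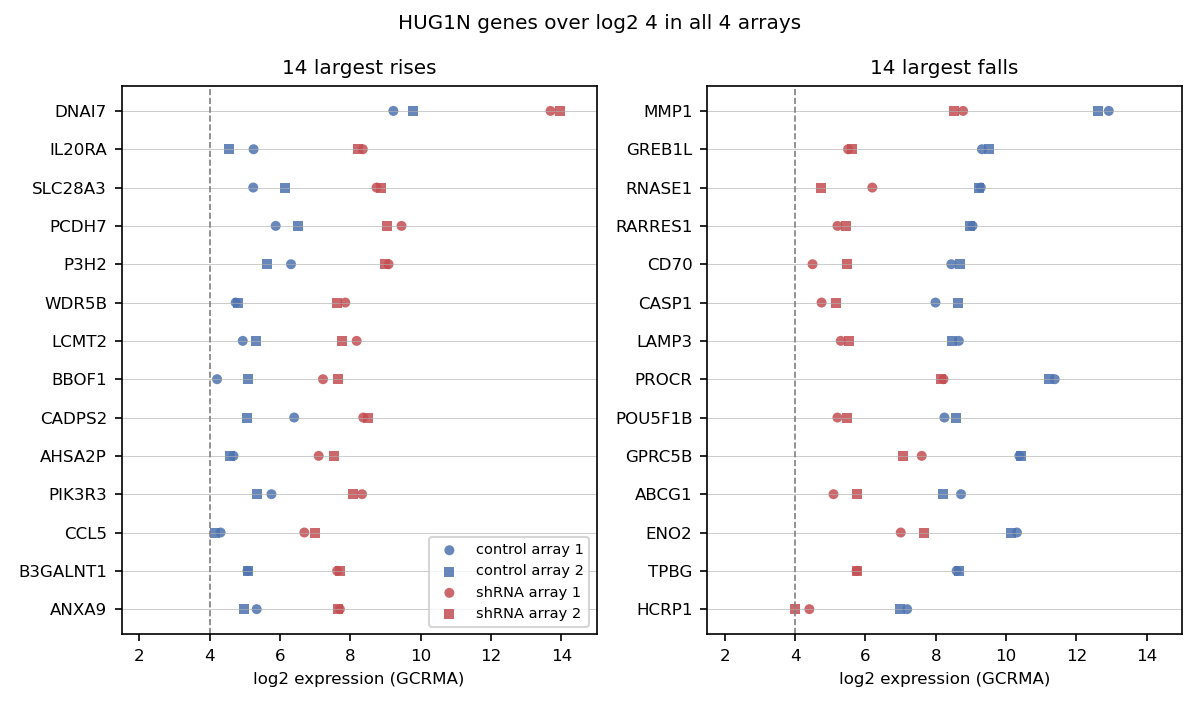
Log2 expression in each HUG1N array of the 14 largest called rises and 14 largest called falls among genes over log2 4 (dashed line) in all 4 arrays. Blue points are control and red points shRNA arrays; in every row the 2 groups lie apart, as in 77.6% of all genes tested.

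A second set of genes was measured in only one condition. Of 82 tested genes with no control array over 4, 77 were called. The same held for 77 of 81 tested genes with no shRNA array over 4. These genes passed the filter only through the group over 4, so a call was nearly settled beforehand. The counts are a description, and the same holds for such genes within the list counts below. CLIC5, which tethers the membrane of microvilli to actin, was 2.76 and 2.49 in control and 9.17 and 9.12 in shRNA arrays, at least 35.4-fold higher. RSAD2, the antiviral enzyme viperin, was 2.33 and 2.51 against 8.52 and 8.15, at least 20.2-fold, and coagulation factor F5 was 2.69 and 2.21 against 8.14 and 8.29, at least 18.6-fold. In none of these was a control array near the shRNA arrays. SLCO2B1, an organic anion transporter, was at least 16.5-fold higher, SLC6A14, a broad amino acid transporter of epithelium, at least 9.28-fold, and ANXA13, an annexin of intestinal and renal epithelium, at least 7.15-fold. DRC9, EFHC2 and TEKT2, which belong to the axoneme of motile cilia, were at least 12.4, 8.68 and 6.83-fold higher. C11orf71 was at least 5.71-fold higher. With probe sets averaged, CLIC5, SLCO2B1 and EFHC2 kept their calls with smaller fitted changes.

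Among genes lost with the shRNA, IL1B led. It was 9.30 and 9.13 in control and 2.17 in both shRNA arrays, at least 37.0-fold lower. Its neighbour IL1A was 8.72 and 8.65 in control and 2.81 and 3.81 in shRNA arrays, at least 25.7-fold lower. Both encode interleukin-1, the alarm cytokine that acts through NF-kB. BCL2L14, a BCL2-family protein, was 8.04 and 8.29 against 3.44 in both shRNA arrays, at least 17.97-fold lower. LCK, a Src-family kinase best known from T cells, was 6.96 and 7.41 against 2.13 and 3.81, at least 9.07-fold lower, and RAC2, a signalling protein of blood cells, was 7.26 and 6.96 against 2.08 and 2.62, at least 8.64-fold lower. The immune markers PTPRC, CD3D and CD3E were at 2.08 in all 4 arrays, control arrays included. IL23A, a cytokine subunit, was at least 6.69-fold lower, IFI27, an interferon-induced gene, at least 7.95-fold, the platelet-activating factor receptor gene PTAFR at least 7.11-fold, the glutathione transferase gene GSTM4 at least 6.48-fold and the pseudogene POU5F1P3 at least 6.03-fold. With probe sets averaged, IL1A, LCK, RAC2 and IL23A kept their calls with smaller fitted changes.

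**Figure D3:**
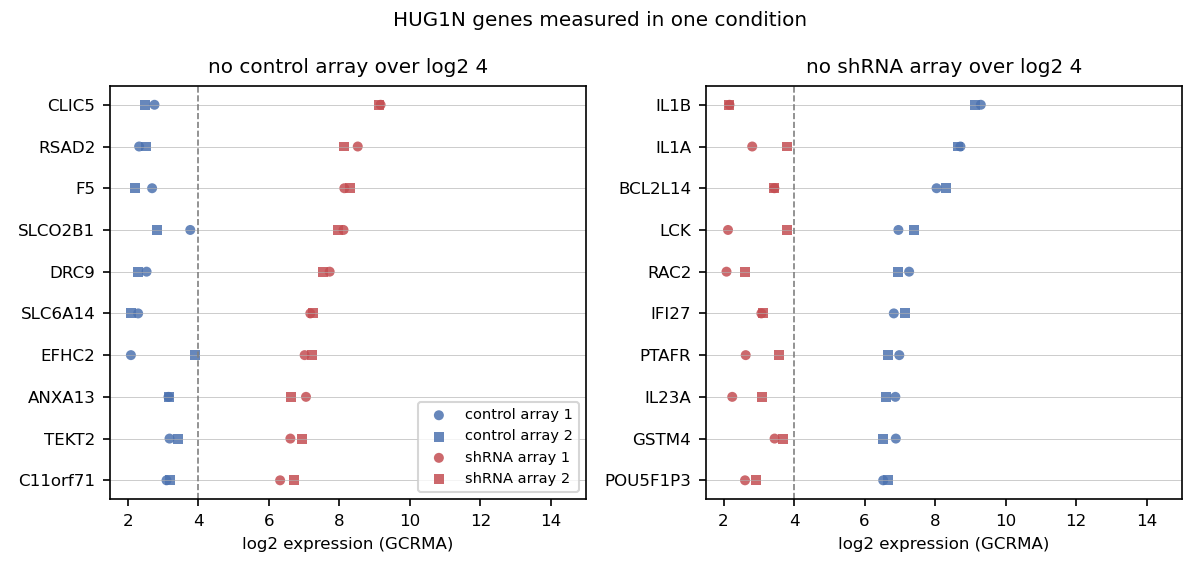
Log2 expression in each HUG1N array of the 10 genes with the highest shRNA mean among called genes with no control array over log2 4, and the 10 with the highest control mean among those with no shRNA array over 4. The dashed line is log2 4; the unmeasured groups lie between 2.08 and 3.90.

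IL1B had the largest bound among the genes lost, and its promoter window is shown with the letters a GATA factor binds. The window is chr2:112836730-112837029 on the minus strand (RefSeq, GRCh38.p14), 300 bases ending 50 bases after the gene's start. AGATAA and TGATAA were searched on both strands, and capitals mark the match, which reads TTATCT here.
IL1B: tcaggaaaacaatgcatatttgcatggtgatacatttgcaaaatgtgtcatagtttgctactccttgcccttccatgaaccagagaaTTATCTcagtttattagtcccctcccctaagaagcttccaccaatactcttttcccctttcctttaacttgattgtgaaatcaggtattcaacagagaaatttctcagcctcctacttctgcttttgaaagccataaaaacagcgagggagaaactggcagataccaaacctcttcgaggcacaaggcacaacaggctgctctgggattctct
There was 1 match, and the window of IL1A held none. Of 6013 tested genes with a window in the RefSeq table, 7.33% held AGATAA or TGATAA, against 16.6% of all 27305 windows. The share was 11.4% of 315 genes called higher by at least 2-fold and 11.3% of 407 called lower by at least 2-fold. A match is a description of the letters and not a binding site.

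Around the interleukin-1 genes, most of the interleukin-1 and NF-kB list was lower. Of 29 members tested, 19 were called lower (65.5%) and 2 higher, with a median change of -0.69 against 0.00 over all genes. Of the 29, 23 were over 4 in all 4 arrays. Members measured only in control, such as IL1B and IL1A, entered the test through that group. Their calls were nearly settled beforehand, so the count and median are in part a description. IL32, a cytokine induced by TNF and interleukin-1, was 8.50 and 8.62 in control and 6.11 and 5.73 in shRNA arrays. TNF itself was 8.77 and 8.72 against 7.001 and 6.28 (change -2.10, SE 0.21, limma adjusted p = 0.000506). IL1RN, the interleukin-1 receptor antagonist, was 10.81 and 10.63 against 9.80 and 9.67. The NF-kB inhibitors NFKBIA and TNFAIP3, both targets of the factor they restrain, changed by -0.68 and -1.32. IL18, another substrate of caspase-1, rose from 7.69 and 8.08 to 8.88 and 8.98 (change 1.05, SE 0.18, limma adjusted p = 0.00414). NFKB1 (-0.02) and ICAM1 (-0.15) did not pass the test. The ACTB gap was wider in the arrays in which this list was lower, and its part in the result was not tested.

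Chemokines did not share one direction. Of 10 tested, 4 were called higher and 3 lower. CXCL8, the neutrophil chemokine interleukin-8, was 11.86 and 11.87 in control and 11.03 and 10.91 in shRNA arrays, and CCL20, which attracts cells bearing CCR6, was 13.61 and 13.97 against 13.07 and 13.10. CCL22, a ligand of CCR4, was 5.94 and 5.54 against 4.30 and 3.20. CCL5 went the other way, as given above. CXCL3, which shares its receptor with CXCL8, changed by 0.47.

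Interferon-induced genes split. Of 34 tested, 17 were called lower and 9 higher (26.5%), and the median change was -0.46. MX1, an antiviral GTPase, was 8.03 and 7.96 in control and 5.41 and 6.21 in shRNA arrays. BST2 or tetherin, which holds budding virus at the cell surface, was 9.02 and 9.15 against 6.66 and 7.17 (change -2.17, SE 0.18, limma adjusted p = 0.000235). UBE2L6, the conjugating enzyme for ISG15, was 9.58 and 9.39 against 7.32 and 7.33, and the transcription factors IRF1 and IRF9 changed by -1.23 and -1.13. Other antiviral genes of the list were called higher. IFIT1 was 9.35 and 9.14 in control and 10.41 and 10.48 in shRNA arrays (change 1.20, SE 0.13, limma adjusted p = 0.000597). IFIT2 was 7.90 and 7.54 against 9.25 and 9.04, and RIGI, the RNA sensor RIG-I, was 7.47 and 6.72 against 8.83 and 8.30. RSAD2 was unmeasured in both controls and entered the test only through the shRNA arrays.

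The interferon-stimulated response element is the site that the interferon-activated factor complex binds in promoters. Windows of BST2, which fell, and IFIT1, which rose, are shown because both hold it although the genes moved in opposite directions. Capitals mark GAAA, any 2 bases and GAAA again, searched on both strands, and the 2 matches in BST2 overlap. The windows are chr19:17405581-17405880 on the minus and chr10:89392373-89392672 on the plus strand (RefSeq, GRCh38.p14).
BST2: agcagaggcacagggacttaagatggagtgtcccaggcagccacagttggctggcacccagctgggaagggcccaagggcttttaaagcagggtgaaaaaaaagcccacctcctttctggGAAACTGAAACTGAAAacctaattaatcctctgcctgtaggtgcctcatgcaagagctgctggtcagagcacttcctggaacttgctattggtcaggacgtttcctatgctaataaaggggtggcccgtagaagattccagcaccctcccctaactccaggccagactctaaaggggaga
IFIT1: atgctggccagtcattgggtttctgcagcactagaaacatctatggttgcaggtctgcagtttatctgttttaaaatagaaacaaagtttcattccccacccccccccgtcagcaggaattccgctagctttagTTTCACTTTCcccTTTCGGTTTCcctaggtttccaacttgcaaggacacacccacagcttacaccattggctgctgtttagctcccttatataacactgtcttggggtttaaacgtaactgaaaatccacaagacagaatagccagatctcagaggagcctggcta
Of 29 tested interferon genes with a window, 20 held the motif (69.0%), against 3.03% of all tested genes and 3.65% of all windows. It was in 11 of 16 windows of members called lower and in 6 of 8 of members called higher. MX1 had 1 match and IFI27 had 2, and the window of RSAD2 held none. A single window per gene was searched, so a match at another start of RSAD2 would have been missed.

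Genes of antigen presentation were mostly lower. In the list for MHC class I antigen processing, 14 of 21 tested members were called lower (66.7%) and 2 higher, with a median change of -0.51. PSMB9, a subunit of the immunoproteasome, was 11.10 and 11.16 in control and 9.15 and 9.02 in shRNA arrays (change -2.04, SE 0.15, limma adjusted p = 0.000174). CD74, the invariant chain of MHC class II, was 6.95 and 7.07 against 4.65 and 4.93. HLA-B was 14.14 and 14.15 against 13.16 and 13.27, and HLA-F was 12.08 and 12.12 against 11.10 and 11.15. The class I genes are similar in sequence, so their probe sets may pick up one another. B2M, the shared light chain, differed by -0.14 and the peptide transporter TAP1 by -0.28, and neither passed the test. Constitutive proteasome subunits did not follow PSMB9, since of 34 tested 10 were called higher and 1 lower, 6 and 0 in the HUG1N arrays alone, with a median of 0.12.

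Gastric genes were lower on the whole, with 5 of 9 tested members called lower (55.6%), 1 higher and a median of -0.59. CLDN18, the tight junction claudin of stomach epithelium, was 10.57 and 10.93 in control and 8.11 and 7.97 in shRNA arrays, 6.55-fold lower (limma adjusted p = 3.78e-05). CTSE, the gastric protease cathepsin E, was 12.74 and 12.68 against 10.28 and 10.13, and ANXA10, an annexin of gastric epithelium, was 12.10 and 12.27 against 10.79 and 10.58. PGC, pepsinogen C, was 5.74 and 5.61 in control and 3.01 in both shRNA arrays, at least 3.19-fold lower. TFF1, the trefoil peptide of gastric surface mucus, was lower by 0.59, from 14.19 and 14.25 to 13.48 and 13.78. The surface mucin MUC5AC went the other way, from 9.24 and 9.47 to 9.88 and 9.98 (change 0.57, SE 0.13, limma adjusted p = 0.00964). That call was lost without control array 1 (adjusted p = 0.0514) and kept under the other 18 settings, which ran from 0.0025. TFF2 (-0.29) and MUC6 (0.44) did not pass the test. Summed over the stomach-type markers, the linear level was 43070 and 44990 in control and 23940 and 28040 in shRNA arrays, most of it TFF1 and TFF2.

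Enterocyte genes moved both ways, 6 of 18 tested higher and 4 lower, with a median of -0.04. KRT20, a keratin of differentiated intestinal epithelium, was 4.97 and 3.66 in control and 8.76 and 8.33 in shRNA arrays (change 4.23, SE 0.40, limma adjusted p = 0.000415). VIL1, the microvillus protein villin, was 7.11 and 6.84 against 8.22 and 8.02, MUC13, a membrane mucin, 9.97 and 10.03 against 11.18 and 11.36, and DPP4, a brush border peptidase, 8.06 and 8.15 against 9.37 and 9.56. Those that fell included GUCY2C, the guanylin receptor, from 9.23 and 9.14 to 7.70 and 7.63, and EPS8L3, a microvillus adaptor, from 10.94 and 10.64 to 8.83 and 9.08. LGALS4 (0.01) and CDH17 (0.16) did not pass the test. Their summed linear level with the other intestine-type markers was 21620 and 20660 in control and 21520 and 21400 in shRNA arrays. Most of that sum was LGALS4, so it says little of the other markers.

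In the secretory list 7 of 15 tested members were called higher and 4 lower, with a median of 0.25, and 6 and 1 in the HUG1N arrays alone. AGR2, a disulfide isomerase needed for mucin folding, was 13.13 and 13.30 in control and 15.09 in both shRNA arrays (change 1.87, SE 0.08, limma adjusted p = 3.55e-05). TFF3, the trefoil peptide of goblet cells, was 10.92 and 10.94 against 12.13 and 12.29, and FCGBP, a mucus protein, was 8.50 and 8.77 against 9.70 and 9.71. SPINK4, a peptide of goblet cells, fell from 10.43 and 10.55 to 8.04 and 7.80. Among keratins, junction and adhesion genes 15 of 31 tested were called higher (48.4%) and 4 lower, with a median of 0.19. KRT19, a keratin of simple epithelium, rose from 12.99 and 13.21 to 14.56 and 14.57, and CLDN1, a tight junction claudin, from 4.91 and 4.803 to 5.98 and 5.78. JUP, plakoglobin of desmosomes and adherens junctions, fell from 11.90 and 12.02 to 10.60 and 10.57.

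Among gut endoderm transcription factors, 6 of 14 tested were called lower, 2 higher and 6 were not called, with a median of -0.34. CDX1, an intestinal homeobox factor, was 7.18 and 7.58 in control and 6.23 and 5.37 in shRNA arrays (change -1.59, SE 0.27, limma adjusted p = 0.00375). The forkhead factors that open endodermal chromatin moved in opposite directions. FOXA2 was 9.45 and 9.36 against 8.996 and 8.99 (change -0.41, SE 0.09, limma adjusted p = 0.0096), and FOXA1 was 6.18 and 5.90 against 6.83 and 6.71 (change 0.73, SE 0.11, limma adjusted p = 0.00261). The epithelial factor ELF3 was called lower (-0.93), but another of its probe sets differed by 0.40, so no direction is given for it. SOX9 (-0.31), KLF5 (-0.04) and EHF (0.06) did not pass the test.

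Motile cilium genes included DNAI7, the largest measured rise. Of 36 genes listed, 26 were on the array, 13 were tested, and 8 of these were called higher (61.5%) and 1 lower. Only 6 of the 13 were over 4 in all 4 arrays, and members measured only with the shRNA entered the test through that group, so the count is a description and no median is given. Besides DNAI7, the dynein light intermediate chain DNALI1 was 6.45 and 6.28 in control and 8.57 and 8.30 in shRNA arrays (change 2.07, SE 0.11, limma adjusted p = 5.62e-05). SPA17, a sperm and cilium protein, was 6.66 and 6.60 against 8.55 and 8.45. DRC9, a subunit of the dynein regulatory complex, was 2.54 and 2.29 against 7.73 and 7.53, and TEKT2, a tektin of the axonemal microtubules, was 3.19 and 3.42 against 6.61 and 6.93. EFHC2 was 2.09 and 3.90 against 7.02 and 7.22, CFAP44 2.09 in both controls against 5.24 and 6.64, at least 3.84-fold, and the dynein heavy chain gene DNAH7 2.08 in both controls against 5.05 and 4.60, at least 1.77-fold. FOXJ1, the master transcription factor of motile cilia, was 4.35 and 3.92 in control and 4.44 and 5.30 in shRNA arrays and did not pass the test (change 0.74, SE 0.34, limma adjusted p = 0.110).

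Genes of intraflagellar transport and the basal body, which every cilium uses, were tested in 25 cases, with 12 called higher (48.0%), 3 lower and a median of 0.29. IFT81, which carries tubulin into the cilium, was 7.37 and 7.88 in control and 9.25 and 9.32 in shRNA arrays (change 1.66, SE 0.17, limma adjusted p = 0.000527). KIFAP3, the adaptor of the kinesin-2 motor, was 5.74 and 5.45 against 7.20 and 7.23. IFT20, which also works at the Golgi, fell from 12.93 and 12.92 to 11.57 and 11.56. IFT88 (-0.15) and CEP290 (0.13) did not pass the test.

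**Figure D4:**
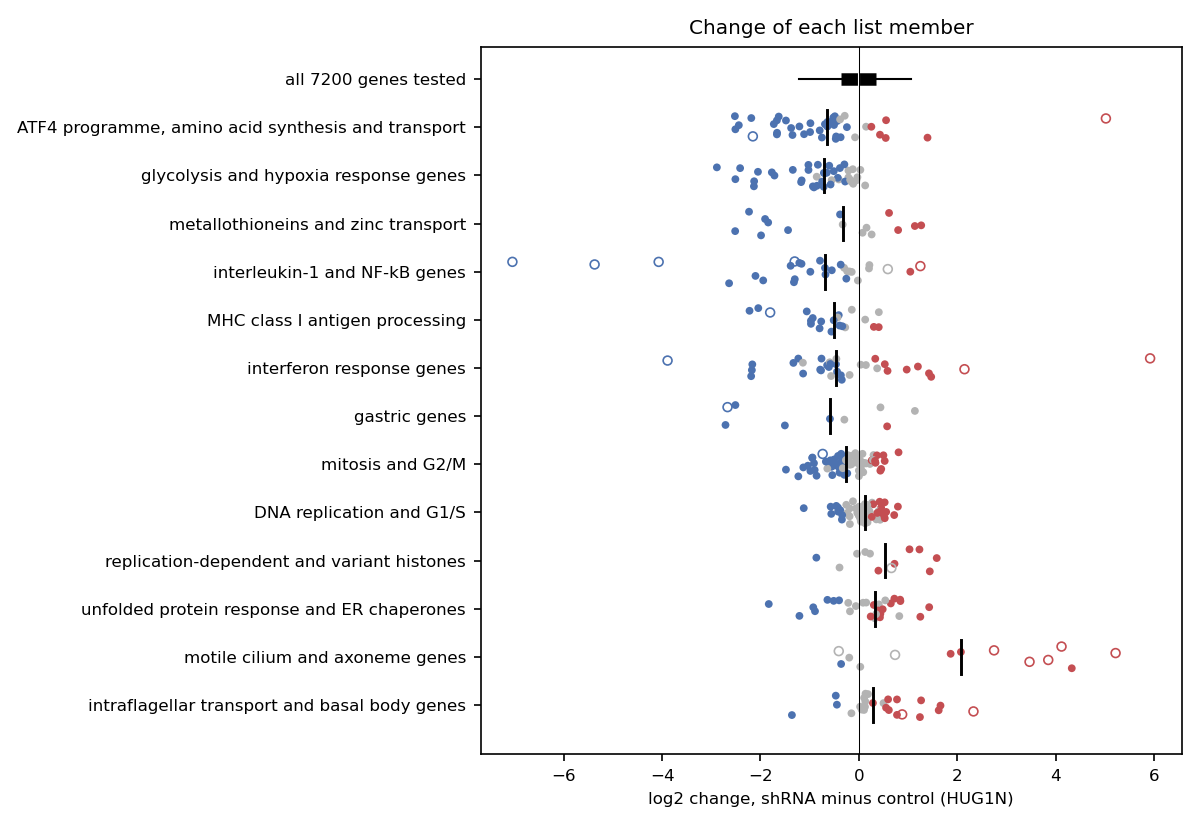
Log2 change of each tested member of 13 gene lists in HUG1N. Red points are called higher, blue called lower and grey not called, and open circles are members not over log2 4 in all 4 arrays. The black tick is the list's median. For the motile cilium list it is not a size, since several members were tested only because the shRNA arrays were over log2 4. The top row gives the median, quartiles (thick) and 5 to 95% range (thin) of all 7200 genes tested.

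Metabolic genes included the lists with the largest shares called lower. None of 42 tested glycolysis and hypoxia response genes was called higher and 29 were called lower (69.0%), with a median of -0.70. In the HUG1N arrays alone 0 were higher and 19 lower. ENO2, a glycolytic enolase, was 10.31 and 10.14 in control and 7.01 and 7.67 in shRNA arrays (change -2.89, SE 0.21, limma adjusted p = 0.000163). HILPDA, a hypoxia-induced lipid droplet protein, was 11.58 and 11.47 against 8.94 and 9.28, and PDK1, which closes the entry of pyruvate into mitochondria, was 7.45 and 7.60 against 5.35 and 5.60. CA12, a carbonic anhydrase of the cell surface, was 9.36 and 9.09 against 7.16 and 7.02, and the aldolase gene ALDOC 11.40 and 11.16 against 9.35 and 9.67. HIF1A, the oxygen-regulated factor itself, was lower by 0.85, from 12.77 and 12.67 to 11.93 and 11.81. VEGFA differed by -0.16 and GAPDH by -0.12, and neither passed the test.

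Some members of that list differed between the 2 shRNA arrays. DDIT4, an inhibitor of mTOR signalling, was 12.67 and 12.60 in control but 9.01 and 11.25 in shRNA arrays (change -2.51, limma adjusted p = 0.0165). Without shRNA array 1 its change was -1.39, and the call was lost without control array 1 (adjusted p = 0.0715), without control array 2 (0.0660), with the HUG1N arrays alone (0.0694) and with no filter (0.0815). SLC2A1, the glucose transporter GLUT1, was 8.51 and 8.52 in control and 6.88 and 7.80 in shRNA arrays (change -1.17, limma adjusted p = 0.0155). Its change was -0.71 without shRNA array 1, and its call was lost without either control array (adjusted p = 0.0645 and 0.0655), with the HUG1N arrays alone (0.0531), with no filter (0.0743) and with probe sets averaged (0.122).

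The promoter window of ENO2 is shown for the core of the hypoxia response element, to which the HIF complex binds. Capitals mark ACGTG, searched on both strands, in chr12:6914330-6914629 on the plus strand (RefSeq, GRCh38.p14).
ENO2: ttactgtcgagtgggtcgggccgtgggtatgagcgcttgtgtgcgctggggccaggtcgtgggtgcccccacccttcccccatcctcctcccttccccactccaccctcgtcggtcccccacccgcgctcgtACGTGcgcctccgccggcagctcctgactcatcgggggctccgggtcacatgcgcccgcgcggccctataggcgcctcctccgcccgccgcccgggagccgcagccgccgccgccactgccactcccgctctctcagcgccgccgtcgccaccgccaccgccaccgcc
There was 1 match in ENO2 and none in the window of PDK1. Of 38 tested list members with a window, 18 held ACGTG (47.4%), against 28.3% of all tested genes and 21.6% of all windows. It was in 13 of 26 windows of members called lower and in 5 of 12 of members not called.

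Amino acid genes fell alongside. In the list of the ATF4 programme, which cells switch on when amino acids are short or the endoplasmic reticulum is stressed, 31 of 41 tested members were called lower (75.6%) and 6 higher, with a median of -0.64. PHGDH, the first enzyme of serine synthesis, was 9.67 and 9.43 in control and 7.13 and 7.09 in shRNA arrays (change -2.44, SE 0.10, limma adjusted p = 3.04e-05). PSAT1, the next enzyme of that pathway, was 8.07 and 8.35 against 6.60 and 6.50, and CBS, which makes cystathionine from homocysteine and serine, was 6.17 and 6.99 against 4.43 and 4.37. ASNS, asparagine synthetase, was 12.13 and 12.04 against 10.72 and 10.69, the glutamine transporter gene SLC1A5 was 9.47 and 9.71 against 8.07 and 8.15, and CHAC1, which breaks down glutathione, was 7.12 and 6.62 against 4.16 and 4.54. ATF4 mRNA was lower by 0.44, from 14.04 and 13.88 to 13.53 and 13.51 (SE 0.07, limma adjusted p = 0.00325). Rises in the list were those of SLC38A2 (0.43), SLC1A1 (0.55), SLC7A11 (0.55), IARS1 (0.25, called in 15 of 19 settings), ATF5 (1.395) and SLC6A14, which was unmeasured in control. With probe sets averaged SLC1A1 was 0.26, SLC7A11 1.05 and ATF5 0.81, and 1 other ATF5 probe set differed by 0.0073.

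Metallothioneins, small cysteine-rich proteins that bind zinc and copper and are induced by metals, were called lower in all 6 cases tested. Their list, with zinc transport genes, had 15 members tested, 7 lower and 4 higher. MT1G was 8.99 and 8.67 in control and 6.16 and 6.48 in shRNA arrays (change -2.51, SE 0.20, limma adjusted p = 0.000228; -1.26 with probe sets averaged). MT1X was 10.90 and 10.40 against 8.43 and 8.89, MT2A was 11.77 and 11.52 against 9.69 and 9.79, and MT1H was 8.53 and 8.32 against 5.71 and 6.68. MT1F changed by -1.44 and MT1E by -1.84, and the MT1E call (limma adjusted p = 0.0192) was lost without any one of the 4 HUG1N arrays (adjusted p 0.0659 to 0.0860), with no filter (0.0893) and with the replicate block (0.0604). The 6 genes are near-identical, and their probe sets may share signal. Zinc transporters of the same list were called higher, SLC39A6, an importer, by 1.27 from 10.71 and 10.60 to 11.93 and 11.91, and SLC30A1, the exporter of the plasma membrane, by 0.80 from 10.74 and 10.84 to 11.67 and 11.51. MTF1, the metal-sensing factor of metallothionein promoters, was called lower by 0.38, a call made in 17 of 19 settings.

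The metal response element is the site that MTF1 binds in these promoters. Windows of MT2A (chr16:56608334-56608633) and MT1X (chr16:56682220-56682519), both on the plus strand (RefSeq, GRCh38.p14), are shown with matches to TGCACNC or TGCGCNC on either strand in capitals.
MT2A: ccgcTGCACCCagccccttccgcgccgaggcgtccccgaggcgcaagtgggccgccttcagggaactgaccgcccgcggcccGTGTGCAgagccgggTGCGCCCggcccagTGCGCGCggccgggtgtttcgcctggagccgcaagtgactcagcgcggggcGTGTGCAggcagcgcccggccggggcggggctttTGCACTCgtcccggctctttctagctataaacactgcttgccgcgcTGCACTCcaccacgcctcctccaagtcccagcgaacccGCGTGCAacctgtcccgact
MT1X: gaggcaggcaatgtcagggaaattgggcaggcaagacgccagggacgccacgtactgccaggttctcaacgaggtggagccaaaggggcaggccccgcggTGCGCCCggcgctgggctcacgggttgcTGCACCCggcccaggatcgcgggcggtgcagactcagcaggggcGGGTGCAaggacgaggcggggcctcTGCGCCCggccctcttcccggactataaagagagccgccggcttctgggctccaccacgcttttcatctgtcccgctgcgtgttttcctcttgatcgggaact
MT2A had 8 matches, MT1X 4 and MT1H 8. All 3 metallothioneins with a window held the motif, as did 40.3% of all tested genes and 29.3% of all windows.

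The unfolded protein response list leaned the other way from the ATF4 list. Of 30 tested members 12 were called higher (40.0%) and 7 lower, with a median of 0.34. The lean was weaker in the HUG1N arrays alone, with 9 higher and 6 lower. HSPA5, the chaperone BiP, was 13.75 and 13.66 in control and 14.44 and 14.27 in shRNA arrays (change 0.65, SE 0.09, limma adjusted p = 0.0016), and CRELD2, a secreted stress factor, was 8.84 and 8.89 against 10.34 and 10.25. EDEM1, which hands misfolded glycoproteins over for degradation, was 9.10 and 8.95 against 7.14 and 7.24, and DDIT3 or CHOP, a target of ATF4, was 11.23 and 11.06 against 10.14 and 10.29. Of 26 cholesterol synthesis and SREBP genes, 11 were called higher and 6 lower, with ACAT2 at 1.25 and INSIG1 at -1.41. In the Golgi glycosylation list 13 of 28 were higher and 7 lower, with the fucosyltransferase gene FUT1 at -2.20 and B3GNT3, which extends O-glycans, at 1.38. The prostaglandin and retinoid list had 9 of 17 lower and 4 higher. It held RARRES1, CRABP2, a retinoic acid carrier (-1.51), and HPGD, which inactivates prostaglandins (1.77).

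Further metabolic and transport lists were mixed. Of 61 oxidative phosphorylation subunits 11 were called higher and 10 lower (7 and 3 in the HUG1N arrays alone), with a median of -0.07 and UQCRC1 at -0.82. Citric acid cycle and fatty acid oxidation genes were called higher in 11 and lower in 12 of 34 cases, with ECI2 at -1.57. In the lipid droplet and apolipoprotein list 3 of 15 were higher and 6 lower (40.0%), with a median of -0.40, and in the list of iron and haem genes 4 of 15 higher and 5 lower, with STEAP3, an iron reductase, at 1.59. Xenobiotic and steroid genes were higher in 4 and lower in 12 of 32 cases, with GSTM3, a glutathione transferase, at -2.01. The epithelial channel and carrier list had 8 of 26 each way, 6 higher and 5 lower in the HUG1N arrays alone, and the coagulation list 3 of 10 higher and 6 lower (60.0%), with a median of -0.64 and complement C3 at -0.81. Lysosome and autophagy genes were higher in 8 and lower in 13 of 46 cases, with the autophagy kinase ULK1 at -1.62.

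Cell cycle genes changed by smaller amounts. In the mitosis and G2/M list 29 of 70 were called lower (41.4%) and 9 higher, with a median of -0.26. AURKB, the kinase of the chromosomal passenger complex, was 9.19 and 9.23 in control and 7.65 and 7.81 in shRNA arrays (change -1.48, SE 0.10, limma adjusted p = 0.000135). NUSAP1, a spindle protein, was 12.47 and 12.19 against 11.21 and 10.99, and MKI67, the proliferation antigen Ki-67, was 9.62 and 9.54 against 9.17 and 9.23. DNA replication and G1/S genes were called in 23 of 57 cases, 14 higher and 9 lower, with a median of 0.13. CCNE2, a cyclin of S phase entry, rose from 10.10 and 9.98 to 10.75 and 10.92, while the licensing factor CDT1 fell from 7.25 and 7.55 to 6.29 and 6.26. CDKN1A or p21, the inhibitor of cyclin-dependent kinases, was 11.51 and 11.28 against 9.54 and 9.65 (change -1.80, SE 0.12, limma adjusted p = 0.000135).

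The cell cycle brake and p53 list as a whole had 7 of 25 members higher and 8 lower. It included PMAIP1 or NOXA at -1.64, GADD45A at -1.02 and the stress-induced sestrin gene SESN1 at 1.32. Among apoptosis regulators 10 of 31 were lower and 3 higher, with BAK1, a pore-forming protein of mitochondria, at -1.66. Of 12 histone genes tested, 6 were called higher and 1 lower, with a median of 0.53. H2AC6 was 8.86 and 8.99 in control and 10.27 and 10.74 in shRNA arrays, H2BC5 7.80 and 7.92 against 9.28 and 9.33, and H1-2 8.82 and 8.98 against 10.17 and 10.10. Replication-dependent histone mRNAs normally lack a poly(A) tail, which 3′ labelling needs, and their coding sequences are similar between genes.

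Protein synthesis lists moved by small amounts. Cytosolic ribosomal proteins were called lower in 12 and higher in 1 of 49 cases, 6 and 0 in the HUG1N arrays alone, with a median of -0.09 and RPS25 at -0.98. Mitochondrial ribosomal proteins were called higher in 18 and lower in 8 of 46 cases, 10 and 7 in the HUG1N arrays alone, with MRPL4 at -2.14. Ribosome biogenesis genes were higher in 10 and lower in 4 of 30 cases, and splicing factors higher in 17 and lower in 9 of 44 cases, 11 and 7 in the HUG1N arrays alone, with HNRNPF at 1.03. Of 15 housekeeping genes 2 were called higher and 4 lower, and ACTB (0.03), GAPDH (-0.12) and TBP (0.13) did not pass the test.

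Signalling genes gave a mixed picture. Of 31 immediate early and MAPK feedback genes 16 were called lower (51.6%) and 4 higher, with a median of -0.38. EGR1, an early response factor, was 10.12 and 10.22 in control and 9.16 and 9.42 in shRNA arrays, and SPRY4, a feedback inhibitor of receptor tyrosine kinases, was 6.93 and 6.81 against 5.88 and 5.45. DUSP6, the phosphatase that turns off ERK, rose from 10.69 and 10.47 to 11.38 and 11.65 (change 0.93, SE 0.12, limma adjusted p = 0.00121).

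Pathway lists of development were less one-sided. Wnt, Notch and Hippo genes were higher in 8 and lower in 4 of 26 cases. JAG1, a Notch ligand, was 12.58 and 12.47 in control and 11.34 and 11.30 in shRNA arrays, and the Notch target HES1 changed by -2.07 (-1.003 with probe sets averaged). RNF43, a ubiquitin ligase that removes Wnt receptors, rose from 5.89 and 6.35 to 7.54 in both shRNA arrays, and ROR1, a receptor for Wnt5a, fell from 6.43 and 6.90 to 4.33 and 4.25. BMP and TGF-beta genes were called in 7 of 23 cases each way, with SMAD3 at -1.55, BMP4 at 0.997 and TGFBR2 at 0.99. EGF family ligands and receptors were higher in 11 and lower in 7 of 31 cases, 7 and 7 in the HUG1N arrays alone.

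Matrix and mesenchymal genes were lower in 8 and higher in 4 of 21 cases, 8 and 2 in the HUG1N arrays alone. Of the 21, 17 were over 4 in all 4 arrays. Members measured only in control, such as ACTA2, entered the test through that group. LGALS1, galectin-1, was 10.14 and 10.12 in control and 8.36 and 8.41 in shRNA arrays, and ACTA2, smooth muscle actin, was 6.52 and 6.04 against 2.95 and 3.41, at least 4.85-fold lower, with a smaller fitted change when probe sets were averaged. Of 15 metalloproteinase and plasminogen genes 5 were lower and 4 higher. Besides MMP1 they included TIMP1, an inhibitor of metalloproteinases, from 9.85 and 10.19 to 8.37 and 8.40, and MMP7 or matrilysin, which rose from 5.16 and 5.41 to 6.55 and 6.17 (change 1.08, SE 0.14, limma adjusted p = 0.00138). Squamous and stress keratinisation genes were called in 3 of 12 cases each way.

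**Figure D5:**
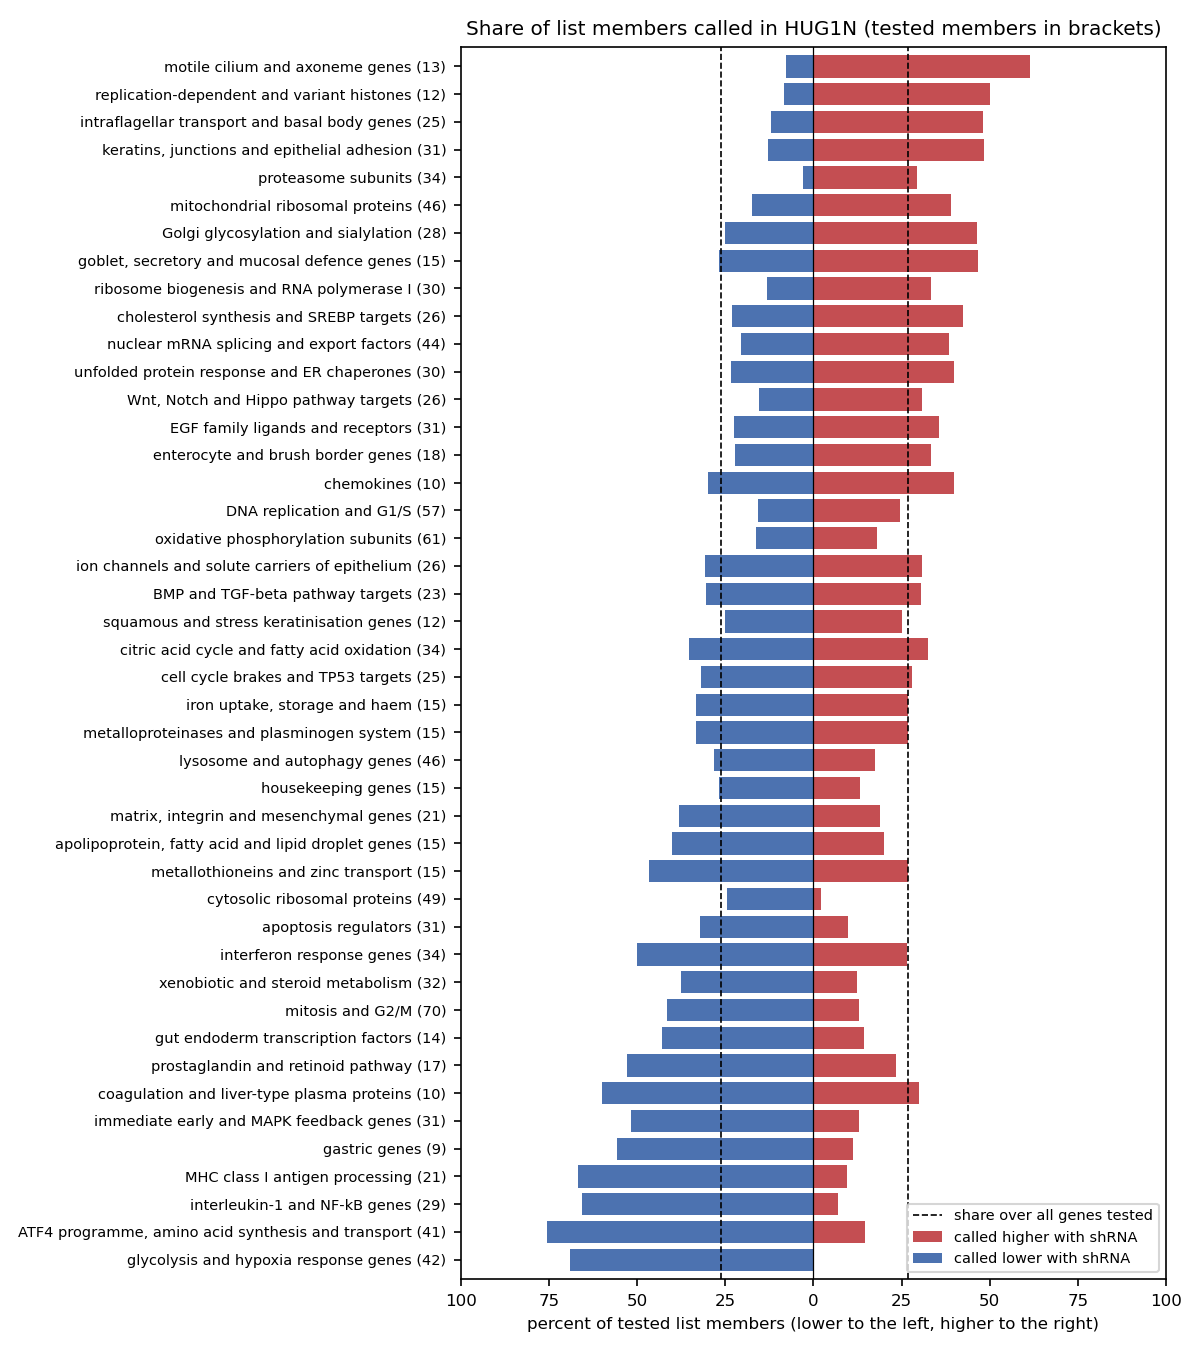
Percent of the tested members of the gene lists shown called higher (red, right) and lower (blue, left) in HUG1N, with the number tested in brackets. Dashed lines are the shares over all 7200 genes tested, 26.7% higher and 26.3% lower; the glycolysis and ATF4 lists reach furthest to the left. Several motile cilium members were tested only because the shRNA arrays were over log2 4.

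The corresponding comparison in Caco-2 shared no array with HUG1N, but both were fitted together with a shared spread per gene. The calls in the lines are therefore not independent. Of the 3815 HUG1N calls, 1609 were also called in Caco-2 (42.2% of the HUG1N calls and 59.3% of the 2715 Caco-2 calls among these genes), 1039 in the same and 570 in the opposite direction. These shares are read against all 7200 genes tested, of which 53.0% were called in HUG1N and 2715 genes in Caco-2. With calls this common in each line, many genes are called in both whether or not the responses are related. The effects differed between the lines for 3265 genes (45.3%) in the test of the difference. GREB1L, lower by 3.85 in HUG1N, was called higher in Caco-2, at 3.30 and 3.04 in control and 5.29 and 4.93 in shRNA arrays. IFIT1 was called higher in both lines, by 1.20 in HUG1N and from 2.94 and 3.20 to 8.74 and 8.52 in Caco-2. The Caco-2 controls of both genes were unmeasured, so no size is given for either difference. DNAI7 was unmeasured in all 4 Caco-2 arrays, so no difference between the lines is given for it. MMP1 was lower in both lines, by 4.12 in HUG1N and 2.09 in Caco-2 (difference -2.03, limma adjusted p = 0.0023). The ACTB gap went the other way in Caco-2, with means of 1.92 in control and 1.55 in shRNA arrays. GATA6 differed by -0.42 there, and the difference between the lines was 0.16 (SE 0.15, limma adjusted p = 0.391).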

How the data were processed

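Gene expression in HUG1N control (2 arrays) and GATA6 shRNA (2 arrays) cells was taken from the deposited log2 values, which the authors made with GCRMA from Affymetrix arrays, per the submitters' processing notes; version: not given in the sources used here. GCRMA adjusts for background using probe sequence, makes array distributions alike and combines the probes of a set. It leaves unexpressed probe sets near 2.08. Probe sets were named through the platform annotation, with symbols updated by Entrez identifier (19070 of 22277 with 1 symbol, 1043 with several, 2164 with none; 19058 matched). The probe set with the highest mean over all 8 arrays stood for a gene. No scaling was added.

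Limma 3.58.1 in R 4.3.3 fitted the 4 group means of all 8 arrays, with residual and prior degrees of freedom of 4 and 2.32, and was tested on simulated data. Genes without signal in Caco-2 have almost no spread there, which lowers their SE; 254 called genes had no Caco-2 array over log2 4, so HUG1N was also fitted alone. Precision is limited by the number of arrays. Named were GATA6, the 14 largest measured rises and falls, 10 genes gained and 10 lost, up to 3 risers and 3 fallers for each of 51 lists, 4 differences between the lines each way, and list members named for their role. Members and lists were chosen with earlier results of these data known. Promoter windows are those of RefSeq for GRCh38.p14, matched for 6013 of 7200 genes. A single window was kept per gene, so other starts of a gene were not searched. 1 gene list is not reported here.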

Additional observations from a re-analysis of the deposited data

Results flagged for a closer look

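The effects of the shRNA differed in sign between the lines, with calls in both, for 8 genes over log2 4 in all 8 arrays that were named by the size of the difference. TNFRSF11B, the decoy receptor osteoprotegerin, rose by 2.49 in HUG1N and fell by 2.92 in Caco-2, a difference of 5.41 (limma adjusted p = 0.00100). The differences for AHSA2P, SIKE1 and SLC12A2, a sodium-potassium-chloride cotransporter, were 3.55, 3.38 and 2.98. The SIKE1 rise in HUG1N (1.08) was lost with the HUG1N arrays alone (adjusted p = 0.0631), with no filter (0.0794) and without HUG1N shRNA array 2 (0.0840), and its change was 0.64 without control array 2. HK1, hexokinase 1, was lower by 0.83 in HUG1N, where it was 11.48 and 11.20 in control and 10.54 and 10.47 in shRNA arrays, and higher by 4.22 in Caco-2, a difference of -5.05. The differences were -4.14 for SLC15A1, the intestinal peptide transporter, -4.11 for BAMBI, a decoy receptor for BMP and TGF-beta, and -3.92 for RNF24. The SLC15A1 call in HUG1N was lost under 2 of 19 settings, with adjusted p up to 0.0723, without shRNA array 1. Its change of -1.29 was -0.85 without control array 1 and -0.65 with probe sets averaged.

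Probe sets with several gene symbols or none entered no gene-level comparison. Of 1287 such probe sets over log2 4 in at least 2 HUG1N arrays, 611 were called (47.5%), 324 higher and 287 lower, and 162 of them changed at least 2-fold.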

How the results depend on the processing

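The count of called genes, 3815, ran from 3179 to 4043 over 11 settings of filter, scaling, variance model, probe set choice, floor, replicate block and the HUG1N arrays alone, and from 3112 to 3673 when 1 array was left out. It was 900 with a 2-fold minimum. Counts of genes higher (1924) ran from 1534 to 1843 and of genes lower (1891) from 1530 to 1830 without 1 array. The share of calls that were higher ran from 47.4 to 55.2%. With the replicate number as a block 3542 genes were called. The numbers were not taken as pairs, since the labels tie them to nothing shared and same-numbered HUG1N deviations correlated at -0.07 over 6888 genes (0.13 over 6505 in Caco-2). The poly-A spikes, however, were higher in the arrays numbered 1, 7.66 against 6.34 in control and 7.31 against 6.12 in shRNA arrays. Of 732 called genes that were named or in a list, 13 turned direction under 1 setting or another, all with probe sets averaged, and 4 were then called the other way. These were TAPBP (-0.56 to 0.38), TRA2A (0.65 to -0.31), RPS28 (-0.19 to 0.34) and RXRB. Among 292 named genes 2 turned. With probe sets averaged FUT6 was -0.031 in place of 1.20 and RXRB -0.28 in place of 0.39; the cause was not tested. ELF3 and PSMF1 had another probe set that went against the one used. Median centring shifted all genes by 0.045, and the medians of the enterocyte, lysosome and channel lists, all near 0, changed sign under it or under quantile normalization. Signal over background limits the genes near the floor, whose fitted changes are not sizes.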
